A study of Sus scrofa with 14 samples.

Results

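The Bama pig libraries of 2 adipose depots were examined for the relation between gene expression and chromatin compartment. The members were chosen by breed and depot label, and comprised 3 RNA-seq and 3 Hi-C libraries, 6 of the 14 libraries analysed here. BM-GOM-1 and BM-GOM-2 came from the greater omentum (GOM), a visceral depot, and BM-ULB-2 came from the upper layer of backfat (ULB), a subcutaneous depot. All came from healthy females of 2 years, and each library is 1 depot of 1 animal. The wild boar animals gave 2 GOM and 2 ULB libraries of each assay, and their values are set beside those of Bama pig below. No agent or genotype separates the groups. RNA was taken from whole tissue, whereas the Hi-C nuclei came from the adipocyte layer that floats after centrifugation, so the cells behind the 2 assays need not be the same.

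Because the ULB is represented by 1 library, no test was possible and no p-value is given. A gene or a bin was counted as outside when the BM-ULB-2 value lay above the higher or below the lower GOM value by more than the 2 GOM values differed. A gene was called when it was outside and differed from the GOM mean by at least 1 on the log2 scale, which is 2-fold. Of 21280 genes listed, 17580 passed the filter on low values and were compared, and 11756 of these had a start site on the 17 autosomes used. Of 113298 bins of 20 kb on all autosomes, 109830 remained after chromosome 10 was left out.

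Mammalian chromatin separates into compartment A, which is gene-rich and mostly active, and compartment B, which is gene-poor and mostly silent. In Hi-C, the first principal component of the contact matrix (PC1) is positive in A and negative in B, and a locus can move from B to A or from A to B between cell types. Visceral and subcutaneous adipose tissue arise from different parts of the embryonic mesoderm and keep different developmental transcription factors in the adult, and visceral depots are covered by mesothelium.

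Genes that start in regions with a lower PC1 in the ULB tended to be less expressed there, and the largest falls among genes whose bin changed state were those of WT1, a transcription factor of the mesothelium, and BMP7, a bone morphogenetic protein. In the other direction the largest rises were those of IRX1 and EN1, homeobox transcription factors of body patterning. The promoters of IRX1, EN1 and WT1 are shown because these genes had among the largest changes in expression of the genes whose bin changed state. Each window holds 250 bases before and 50 bases from the RefSeq start site of Sscrofa11.1, on the strand of the gene, and capitals mark GGGCGG, the GC box, on either strand. The windows are chr16:77701040-77701339 (minus strand) for IRX1, chr15:24408328-24408627 (minus strand) for EN1 and chr2:28411217-28411516 (plus strand) for WT1.
IRX1: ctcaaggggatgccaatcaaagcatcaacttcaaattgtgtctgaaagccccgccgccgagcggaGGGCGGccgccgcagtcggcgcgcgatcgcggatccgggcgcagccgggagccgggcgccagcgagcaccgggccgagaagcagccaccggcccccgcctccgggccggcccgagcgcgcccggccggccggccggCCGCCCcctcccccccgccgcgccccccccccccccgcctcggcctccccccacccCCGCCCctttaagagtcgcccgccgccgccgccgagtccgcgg
EN1: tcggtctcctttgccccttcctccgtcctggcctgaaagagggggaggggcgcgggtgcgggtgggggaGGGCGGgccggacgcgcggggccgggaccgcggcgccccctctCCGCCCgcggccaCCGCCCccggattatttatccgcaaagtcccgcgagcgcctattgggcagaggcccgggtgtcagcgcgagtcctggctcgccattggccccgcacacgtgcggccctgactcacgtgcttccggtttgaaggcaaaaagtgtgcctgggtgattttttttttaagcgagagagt
WT1: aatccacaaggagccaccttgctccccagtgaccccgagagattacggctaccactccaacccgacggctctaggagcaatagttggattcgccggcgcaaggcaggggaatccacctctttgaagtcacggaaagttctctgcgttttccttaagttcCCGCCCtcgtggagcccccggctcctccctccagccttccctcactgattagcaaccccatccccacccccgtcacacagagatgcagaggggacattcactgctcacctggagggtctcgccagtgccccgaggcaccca

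The window of IRX1 held 47 CpG dinucleotides, that of EN1 held 33 and that of WT1 held 15. The median over all 11756 promoters was 20. GGGCGG was found 3 times at IRX1 and at EN1 and once at WT1, and 59.8% of all promoters held it. Neither TATAAA nor AGATAA, the core of a GATA motif, was found in these 3 windows, and 8.45% and 7.45% of all promoters held them on either strand. Promoters in bins that went from B to A had a median of 16 CpG, those in bins that went from A to B had 17, those in A in all 3 libraries had 21 and those in B in all 3 had 13. Promoters in bins with a changed state therefore lay between those of stable A and stable B in CpG number.

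The estimated counts summed to 18627076 in BM-GOM-1, 14302215 in BM-GOM-2 and 10833153 in BM-ULB-2. On the log2 CPM scale, counts scaled to the size of the library, Spearman rho was 0.948 between the GOM libraries, 0.935 between BM-GOM-1 and BM-ULB-2 and 0.913 between BM-GOM-2 and BM-ULB-2. The adipocyte genes marked all 3 libraries. FABP4, the fatty acid carrier of adipocytes, had 6864, 8298 and 8517 TPM (a level scaled for transcript length and library size) in BM-GOM-1, BM-GOM-2 and BM-ULB-2, and ADIPOQ, which encodes adiponectin, had 3673, 5332 and 3040 TPM. Below, values of the 3 libraries are always given in this order, and a log2 fold change is BM-ULB-2 minus the GOM mean on the log2 CPM scale. In bulk tissue, fewer cells of a type and less RNA per cell cannot be told apart.

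Of the 17580 genes compared, 3326 (18.9%) lay outside and higher in BM-ULB-2 and 3176 (18.1%) lay outside and lower. Of all genes, 2000 (11.4%) were called higher and 1505 (8.56%) were called lower. The spread between the GOM libraries and the difference from their mean were of similar size by the median. These measures are unlike, since a difference from a mean of 2 libraries varies less than a difference between 2 single libraries. The size of the depot difference is therefore not read from them. The median absolute log2 difference was 0.542 between BM-ULB-2 and the GOM mean and 0.575 between the GOM libraries, and 5049 and 4594 genes were at least 2-fold apart. On the TPM scale the median log2 fold change of all genes was -0.44 instead of 0.02, and the listed genes sum to 774260 TPM in BM-ULB-2 against 956616 and 932686 in the GOM. The share of higher genes among the called fell from 57.1% to 31.4% on that scale, so folds are read against the median of all genes.

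The wild boar values of the called genes were set beside those of all genes. Both wild boar ULB libraries lay below both GOM libraries for 58.5% of the genes called lower, against 25.6% of all genes. Both lay above for 33.1% of the genes called higher, against 25.3% of all genes. The opposite order in wild boar was seen for 6.25% and 7.4%. Of the genes called higher, 629 had under 1 TPM in BM-ULB-2. The filter admits a gene on the single ULB library but otherwise needs both GOM libraries, so the genes called higher and lower were not selected alike, and neither the difference between their shares nor that between the breeds was tested.

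Among genes of at least 5 TPM in both GOM libraries, the 8 with the largest falls in the ULB were WT1, KRT7, GATA5, TNNI3, BMP7, GREM1, RSPO1 and SLIT1. WT1 had 83.7, 46.1 and 0.25 TPM, a log2 fold change of -7.12. KRT7, an epithelial keratin, had 29.8, 26.7 and 0.07 TPM, and its count of 1 in BM-ULB-2 put it 261-fold lower (95% counting interval 46.8 to 10300). GATA5, a zinc finger factor of mesoderm and endoderm, had 16.3, 16.4 and 0.04 TPM, 246-fold lower (44.1 to 9710). The GOM libraries stood close together in KRT7 and GATA5 and were 0.74 apart on the log2 scale in WT1, and BM-ULB-2 stood near 0. These intervals are exact Poisson intervals and cover counting error only.

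Among the others, 4 encode secreted proteins. GREM1, which encodes the BMP antagonist gremlin, had 48.0, 55.2 and 0.37 TPM, a log2 fold change of -6.48. RSPO1, an enhancer of WNT signalling, had 24.4, 28.8 and 0.13 TPM, 200-fold lower (35.9 to 7910). SLIT1, a guidance ligand, had 9.89, 7.11 and 0.06 TPM, a log2 fold change of -6.24. TNNI3, the cardiac troponin I, had 10.51, 12.56 and 0.03 TPM. BMP7, the fourth secreted protein, is described below. Both wild boar ULB libraries lay below both GOM libraries in each of the 8, against 25.6% of all genes.

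The largest rises were a less uniform group. IRX1 had 0.05, 0 and 7.54 TPM, and its single count in the GOM put it 374-fold higher (67.1 to 14800). CRABP2, a retinoic acid binding protein, had 0, 0.33 and 17.9 TPM, 188-fold higher (52.2 to 1560). In both genes the wild boar ULB libraries also lay above the GOM libraries, at log2 fold changes of 4.23 for IRX1 and 4.55 for CRABP2.

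A further 5 genes of this group were near 0 in most wild boar libraries. APOBEC2, a cytidine deaminase family member of striated muscle, had 0, 0.14 and 6.23 TPM, and wild boar had at most 0.72 TPM. CAPN12, a calpain protease, had 0.28, 0.37 and 22.0 TPM, and wild boar had at most 0.04 TPM. RLBP1, a retinaldehyde carrier of the retina, had 0.09, 0.12 and 8.9 TPM. CRYBA1, a lens crystallin, had 0, 1.25 and 41.5 TPM and 0 TPM in all 4 wild boar libraries. The listed interferon gene IFN-ALPHA-8, of a family of near-identical copies whose reads may be shared, had 0, 0.23 and 7.39 TPM. These genes thus rest on the single library BM-ULB-2, and whether they mark the depot, the animal or the library cannot be told apart.

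In the Hi-C data, PC1 was closely related between all 3 libraries, with 49.0%, 48.9% and 48.6% of bins in A. Pearson's r was 0.98 between the GOM libraries, 0.962 between BM-GOM-1 and BM-ULB-2 and 0.957 between BM-GOM-2 and BM-ULB-2. BM-ULB-2 lay outside and higher in 26226 bins (23.9%) and outside and lower in 24704 bins (22.5%). The SD of the PC1 difference was 8.15 between BM-ULB-2 and the GOM mean and 6.13 between the GOM libraries. Here too the first is a difference from a mean and the second is between single libraries. Differences of 20 PC1 units or more were found upward in 1345 bins, downward in 1294 bins and between the GOM libraries in 726 bins.

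A bin changed state when both GOM libraries were on the same side of 0 and BM-ULB-2 was on the other. From B to A, 2673 bins (2.43%) covering 53.46 Mb changed, and from A to B, 2955 bins (2.69%) covering 59.1 Mb changed. The GOM libraries themselves differed in state in 5770 bins (5.25%). Most changed bins had a PC1 near 0, with a median of -6.13 in the GOM and 3.95 in the ULB from B to A, and 5.94 and -3.98 in the A to B bins. With an absolute PC1 of at least 5 in each library, 8.46 Mb and 8.36 Mb remained. Without BM-GOM-1, when the sign in BM-GOM-2 alone sets the GOM state, the lengths were 86 Mb and 93.02 Mb.

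The changed bins lay between the stable compartments in their sequence and gene content. Median GC content was 40.33% in bins from B to A and 42.02% in bins from A to B, against 43.86% in stable A and 37.9% in stable B. Start sites of placed genes numbered 3.89 and 3.65 per Mb in the changed bins, 10.79 in stable A and 1.51 in stable B. Of the changed bins, 28.5% of those gaining A and 24.5% of those losing A were next to a compartment border of the GOM, against 6.9% of all bins.

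In wild boar, where both ULB libraries had to be on the other side of both GOM libraries, 1101 bins (1.0%) went from B to A and 1152 bins (1.05%) from A to B. The same change was found there in 18.9% of the Bama pig bins from B to A and in 16.6% of those from A to B, and the opposite change in 17 and 24 bins. For 55.3% of the bins from B to A, both wild boar ULB libraries had a PC1 above both GOM libraries, against 20.9% of all bins. For 55.0% of the bins from A to B they lay below, against 22.2% of all bins. Across bins, the PC1 difference in Bama pig had an r of 0.515 with that in wild boar, where neighbouring bins share contacts and the breeds share no library.

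Changed bins were found on each of the 17 autosomes, from 3.09% of chromosome 17 to 7.68% of chromosome 8. Chromosome 1 had 474 bins that gained A and 319 that lost A, whereas chromosome 2 had 126 and 244. The replicate r of PC1 between the GOM libraries was lowest on chromosome 8, at 0.965, which is also the chromosome with the largest changed share.

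**Figure D1:**
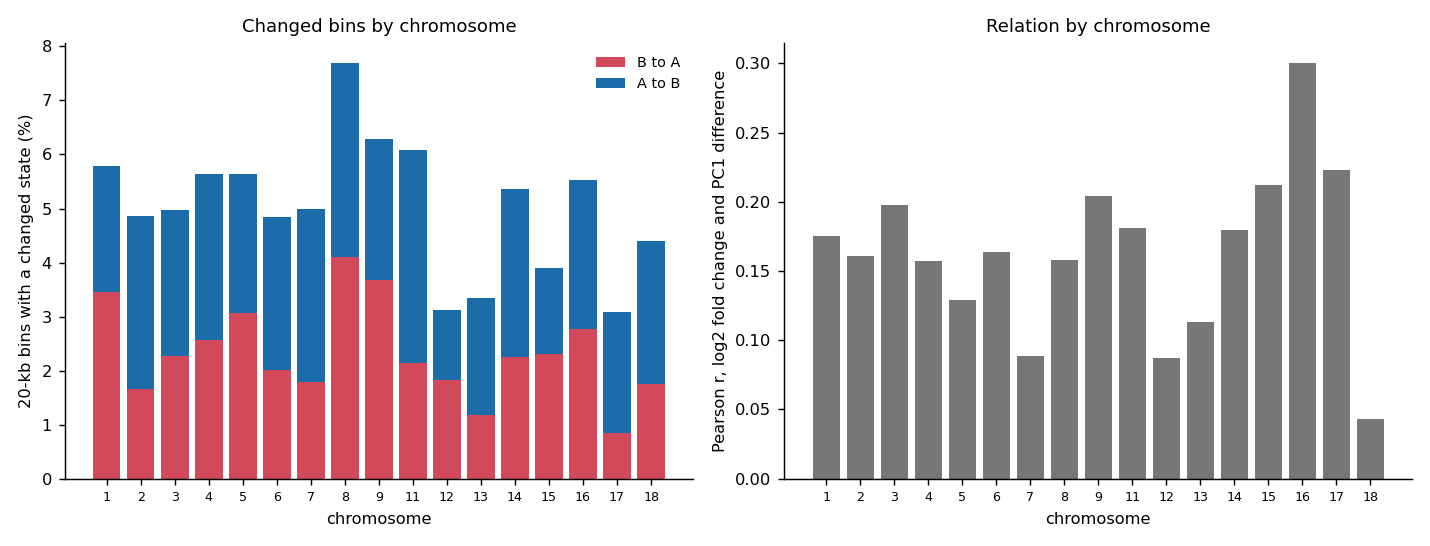
Left, percent of the 20-kb bins of each autosome that changed state between the Bama pig GOM libraries and BM-ULB-2, with bins gaining A in red and bins losing A in blue. Right, Pearson r across genes between log2 fold change and PC1 difference on each autosome. The changed share runs from 3.09% on chromosome 17 to 7.68% on chromosome 8, and r runs from 0.043 on chromosome 18 to 0.3 on chromosome 16.

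The changed bins fell into 1451 runs that gained A and 1538 runs that lost A, of which 972 and 993 were single bins. The longest run from B to A held 46 bins, from 99420001 to 100340000 on chromosome 6, with a mean PC1 of -10.8, -8.8 and 12.5. It holds the start sites of PTPRM, a receptor tyrosine phosphatase with 122, 56.8 and 91.7 TPM, and of LAMA1, a laminin chain with 0.29, 0.14 and 0.24 TPM. Neither gene lay outside the GOM libraries, although the whole run changed state. On the log2 CPM scale BM-ULB-2 was above both GOM libraries in each, at log2 fold changes of 0.61 and 0.69. The GOM libraries were 0.98 apart in PTPRM and 0.79 apart in LAMA1. The next run, of 24 bins on chromosome 9 from 34180001 to 34660000, holds PDGFD, a platelet-derived growth factor, with 26.9, 20.3 and 32.6 TPM. PDGFD lay outside and higher at a log2 fold change of 0.95, under the 2-fold limit. The third, of 22 bins from 42540001 to 42980000 on the same chromosome, holds no start site of a gene with a symbol.

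The longest run from A to B held 26 bins without a named start site, from 66580001 to 67100000 on chromosome 2, where mean PC1 was 7.3, 10.2 and -14.8. The run of 21 bins on chromosome 16 from 53840001 to 54260000 holds DOCK2, a guanine nucleotide exchange factor of leukocytes, which was called lower with 18.2, 13.9 and 5.59 TPM. The run of 19 bins on chromosome 8 from 41620001 to 42000000 holds KDR, the VEGF receptor of endothelium. KDR had 47.3, 63.2 and 47.8 TPM and was not outside, while the PC1 of its start-site bin differed by -25.04. The longest runs thus held start sites of called genes and of genes that were not called. A gene that was not called is not shown to be unchanged.

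Across the 11756 placed genes, the log2 fold change had a Pearson r of 0.155 and a Spearman rho of 0.136 with the PC1 difference of the start-site bin. The same relation between the GOM libraries, BM-GOM-2 minus BM-GOM-1 in both assays, had an r of 0.011 and a rho of 0.015. The relation was positive on 17 of 17 autosomes by r, and rho was -0.009 on chromosome 18. Without the 392 genes whose bin changed state, r was 0.131 over the 11364 others. Among genes in B in all 3 libraries r was 0.269, and among those in A in all 3 it was 0.104. Genes are not independent replicates, since neighbours share bins and all points share the same 6 libraries.

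**Figure D2:**
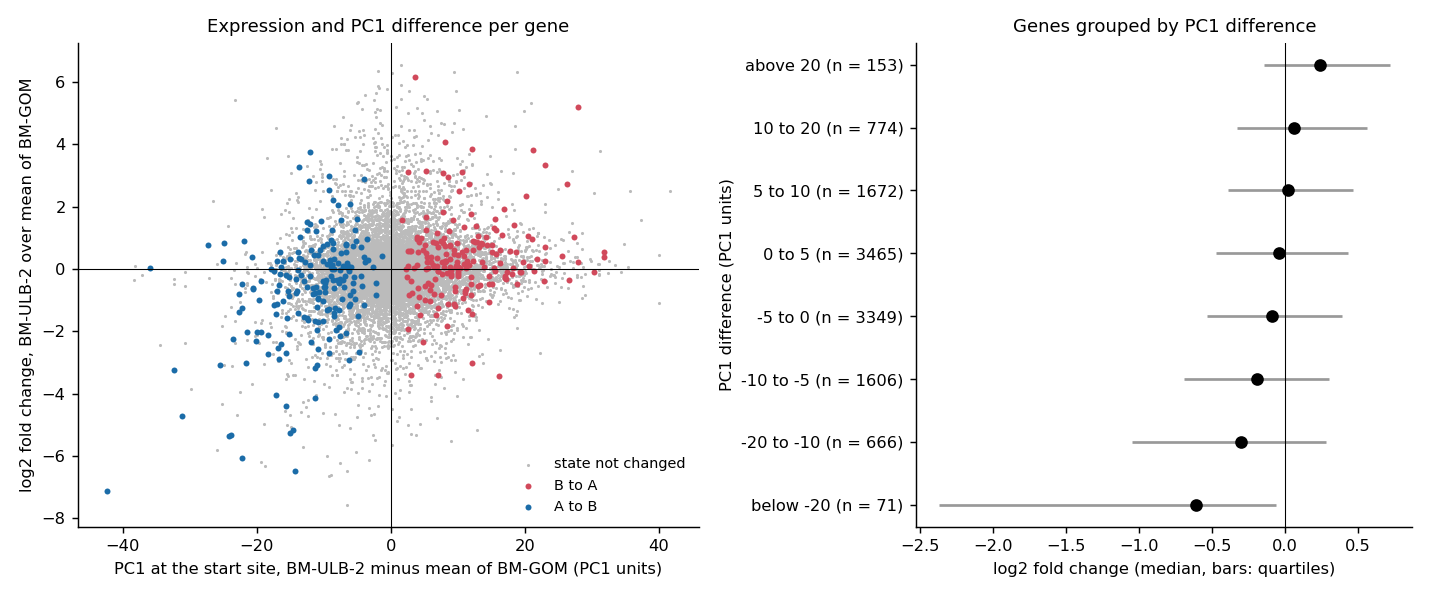
Left, log2 fold change of each placed gene against the PC1 difference of its start-site bin, both BM-ULB-2 minus the GOM mean, with genes in bins gaining A in red and in bins losing A in blue. Right, median log2 fold change (points) and quartiles (bars) of genes grouped by PC1 difference; the median runs from -0.61 below -20 to 0.24 above 20, with all quartile ranges overlapping their neighbours.

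The size of the shift grew with the PC1 difference and was larger on the falling side. The 71 genes with a PC1 difference below -20 had a median log2 fold change of -0.61 (quartiles -2.37 and -0.06), and 32 of them (45.1%) were called lower against 2 called higher. Of all placed genes, 8.86% were called lower and 7.84% higher. The 153 genes above 20 had a median of 0.24 (quartiles -0.14 and 0.72), with 22 (14.4%) called higher and 2 (1.31%) called lower. The classes between followed in order, with medians of -0.3, -0.19, -0.09, -0.04, 0.02 and 0.06. Between the GOM libraries, the median log2 difference of the same classes stayed between 0 and 0.11 and had no such order. The classes were cut on the PC1 difference of BM-ULB-2 from the GOM mean, so this is no replicate control of the relation.

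Grouped by state, the 196 genes in bins from B to A had a median log2 fold change of 0.22, and 29 (14.8%) were called higher and 11 (5.61%) lower. The 196 genes in bins from A to B had a median of -0.44, and 54 (27.6%) were called lower and 12 (6.12%) higher. Set at their bounds, the 8 genes from A to B with 0 counts in a depot moved that median to -0.38. Genes in stable A had a median of -0.08 and genes in stable B of 0.09. On the TPM scale the medians were -0.23 and -0.86, and relative to the median of all genes they were 0.21 and -0.42, against 0.21 and -0.45 on the CPM scale. Stable B genes were called in both directions, 17.3% higher and 16.1% lower, more often than stable A genes at 6.44% and 7.52%.

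Of the genes from A to B with at least 10 TPM on average, 25 of 90 were called lower and 0 higher. In the same range, 4 of 93 genes from B to A were called higher and 3 lower. From 1 to 10 TPM, 21 of 67 genes from A to B were called lower and 5 higher, and 16 of 69 from B to A were called higher and 8 lower. Below 1 TPM, 8 of 39 genes from A to B were called lower and 7 higher, and 9 of 34 from B to A were called higher and 0 lower. Both of these classes had a median log2 fold change above 0, 0.31 from A to B and 0.86 from B to A. At this level a gene can pass the filter on BM-ULB-2 alone, so these counts are not read as a relation to PC1. Of all placed genes at any level, 7.84% were called higher and 8.86% lower, and shares by TPM range were not computed.

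With a TPM of at least 1 in the higher depot, 47 genes combined a change from A to B with a call lower, and 23 combined a change from B to A with a call higher. The opposite pairing was found for 7 genes from A to B called higher and 11 from B to A called lower. In the plot by library, WT1 and its group stand at the bottom and IRX1 and its group at the top.

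**Figure D3:**
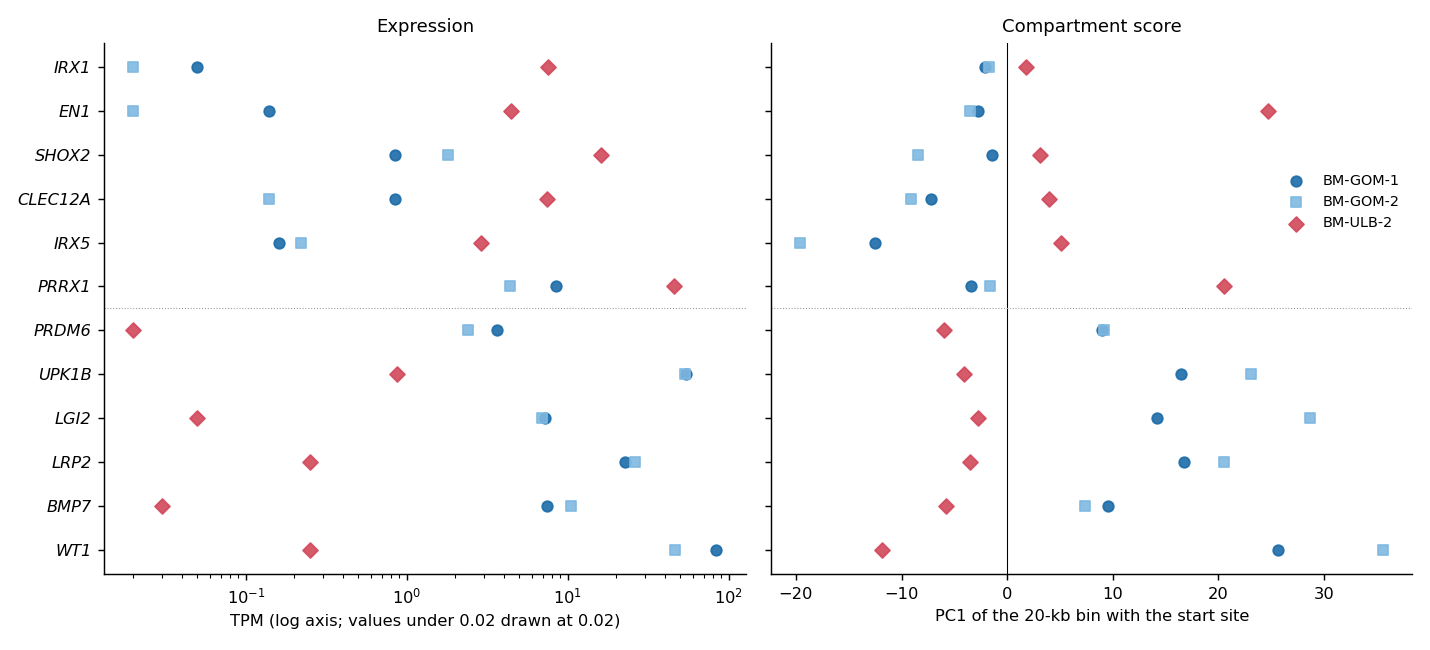
TPM (left, log axis) and PC1 of the start-site bin (right) in BM-GOM-1, BM-GOM-2 and BM-ULB-2 for the 6 genes with the largest rise and the 6 with the largest fall among those whose bin changed state the same way. The choice of genes puts BM-ULB-2 on the other side of both GOM libraries, from 83.7 and 46.1 to 0.25 TPM for WT1 and from 0.14 and 0 to 4.44 TPM for EN1; in PC1 of SHOX2 it lies nearer to BM-GOM-1 than the GOM libraries lie to each other.

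The start site of WT1 had a PC1 of 25.6, 35.6 and -11.8, a difference of -42.45 and the largest fall of any placed gene in a changed bin. LRP2, which encodes the endocytic receptor megalin on chromosome 15, had a PC1 of 16.8, 20.6 and -3.52 and a TPM of 22.5, 26.0 and 0.25, a log2 fold change of -6.06. UPK1B, a uroplakin of mesothelium and urothelium on chromosome 13, had a PC1 of 16.5, 23.1 and -4.04 and a TPM of 54.3, 53.3 and 0.87, a log2 fold change of -5.33.

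BMP7 on chromosome 17 moved less in PC1, with 9.53, 7.4 and -5.81, and had 7.38, 10.4 and 0.03 TPM, 225-fold lower (40.4 to 8880). LGI2, a secreted leucine-rich repeat protein on chromosome 8, had a PC1 of 14.2, 28.7 and -2.74 and a TPM of 7.25, 6.96 and 0.05, 99.6-fold lower (17.9 to 3930). PRDM6, a histone methyltransferase family member of smooth muscle on chromosome 2, had a PC1 of 8.95, 9.16 and -6.01. Its TPM was 3.61, 2.4 and 0, at least 18.8-fold lower against a floor of 3 counts. In wild boar the PC1 difference at BMP7 was -1.16, while WT1, LRP2, UPK1B, LGI2 and PRDM6 had differences from -26.97 to -9.79. Of these genes only WT1 and PRDM6 changed state in wild boar.

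A further 4 of the 47 genes are given as examples, picked once the values were known. CDH1, which encodes E-cadherin, had 31.0, 15.8 and 0.59 TPM and a PC1 of 12.4, 21.5 and -14.3. CLDN1, a tight junction claudin, had 24.9, 22.4 and 3.41 TPM and a PC1 of 2.77, 2.83 and -17.4. CXADR, a junctional adhesion protein, had 12.7, 16.1 and 0.39 TPM and a PC1 of 12.6, 15.4 and -1.7. DPT, a matrix protein of fibroblasts and the most abundant of the 47, had 471, 274 and 64.6 TPM with a PC1 of 14.9, 19.0 and -4.5. Their direction in both measures was fixed by the selection.

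In the rising group, EN1 on chromosome 15 had a PC1 of -2.77, -3.52 and 24.8 and a TPM of 0.14, 0 and 4.44, 80.0-fold higher (27.4 to 388). PRRX1, a homeobox factor of limb and connective tissue mesenchyme on chromosome 4, had a PC1 of -3.38, -1.66 and 20.5 and a TPM of 8.42, 4.36 and 45.4, a log2 fold change of 3.35. IRX5, on chromosome 6, had a PC1 of -12.5, -19.6 and 5.1 and a TPM of 0.16, 0.22 and 2.87, a log2 fold change of 3.82. The PC1 of these 3 start sites rose by over 20 units.

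The other 3 rose less in PC1. SHOX2, a homeobox factor of limb and heart on chromosome 13, had a PC1 of -1.41, -8.47 and 3.14 and a TPM of 0.84, 1.79 and 16.0, a log2 fold change of 4.08. CLEC12A, a C-type lectin receptor of myeloid cells on chromosome 5, had a PC1 of -7.2, -9.11 and 3.95 and a TPM of 0.84, 0.14 and 7.46. IRX1 on chromosome 16 had a PC1 of -2.05, -1.69 and 1.78, so that all 3 libraries lay near 0. Both wild boar ULB libraries were above both GOM libraries in the expression of EN1, SHOX2, IRX5, PRRX1 and IRX1, against 25.3% of all genes. CLEC12A had a wild boar log2 fold change of 0.12 and the orders overlapped. The wild boar PC1 differences were upward, from 3.12 at CLEC12A to 19.52 at EN1, but of these genes only IRX1 changed state in wild boar. EN1, PRRX1 and SHOX2 were in A in both wild boar GOM libraries.

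**Figure D4:**
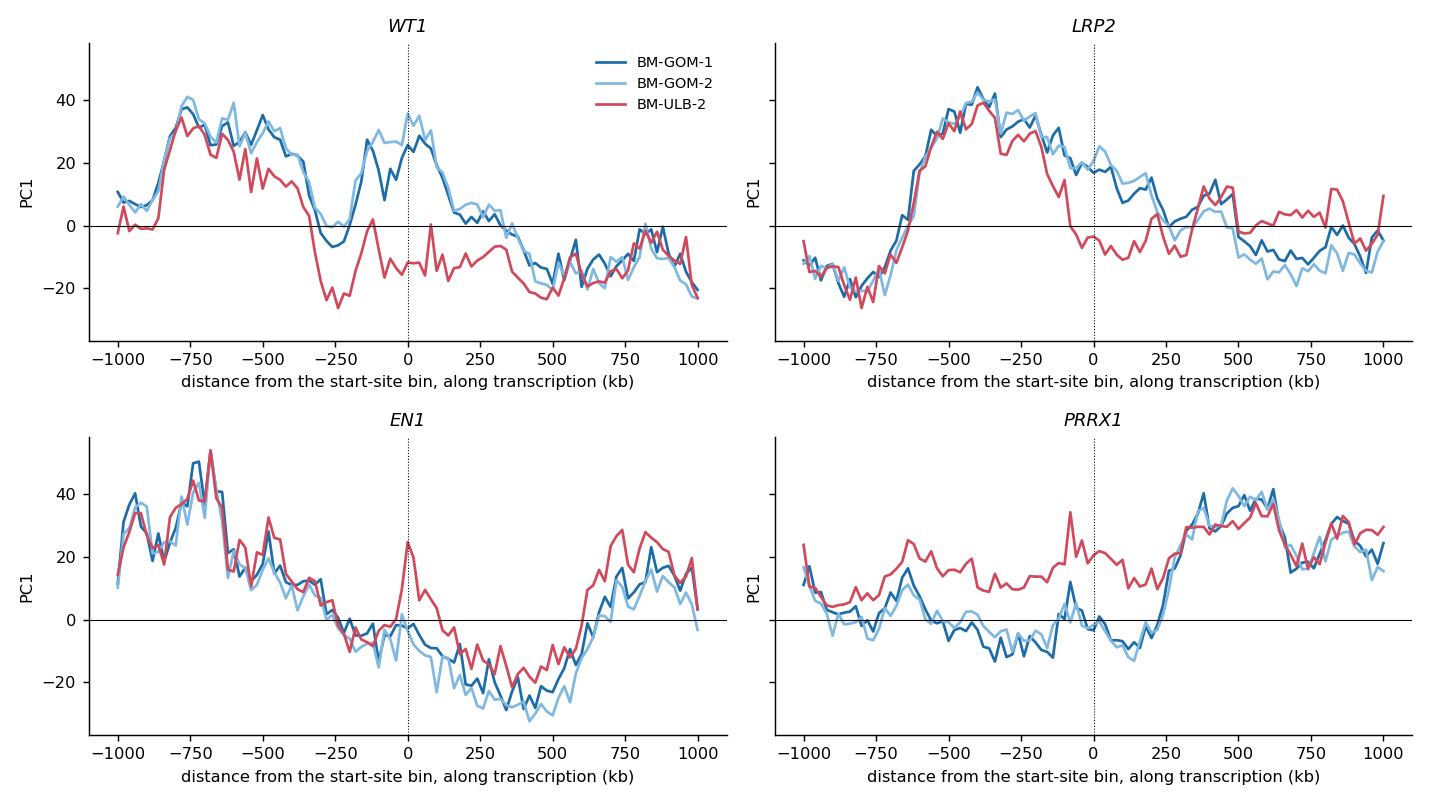
PC1 per 20-kb bin against distance in kb from the start-site bin, in the direction of transcription, for WT1, LRP2, EN1 and PRRX1 in the 3 Bama pig libraries. The GOM libraries run together, BM-ULB-2 lies below them around WT1 and LRP2 and above them around EN1 and PRRX1, and the libraries approach each other toward parts of the margins.

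Genes that moved against their compartment were given by the same rule. From A to B but higher in the ULB, SYCE1, a synaptonemal complex protein, had 0.15, 0.18 and 2.62 TPM with a PC1 of 14.3, 9.11 and -0.36. CCDC73 on chromosome 2, whose start site lies 317820 bases from that of WT1, had 0.59, 0.83 and 5.5 TPM with a PC1 of 4.87, 5.6 and -8.51. IL12A, an interleukin 12 subunit, had 0, 0.12 and 1.73 TPM with a PC1 of 6.64, 3.19 and -4.3. From B to A but lower, CASP1, the inflammatory caspase, had 13.1, 23.0 and 1.04 TPM with a PC1 of -6.3, -16.4 and 4.73. SERPINB5, a serpin of epithelia, had 6.84, 10.3 and 0.48 TPM with a PC1 of -11.06, -1.32 and 0.9. GAPT, an adaptor of B cells, had 1.84, 1.29 and 0 TPM with a PC1 of -2.74, -2.57 and 0.36. In SYCE1, SERPINB5 and GAPT the PC1 of BM-ULB-2 was near 0, so their change of state is slight. The 3 falling genes were lower in both wild boar ULB libraries too, against 25.6% of all genes. The wild boar orders of the 3 rising genes overlapped.

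Among the gene lists, the mesothelium stood lowest. Of 20 genes in the list 12 were matched by symbol, 11 were compared, and 8 of these were called lower and 0 higher, against 8.56% and 11.4% of all genes. The median log2 fold change was -4.67 and the median PC1 difference at the start site was -13.99, against 0.22 over all genes. The summed TPM of the list was 346, 559 and 25.7. KRT8, a simple epithelial keratin, had 89.2, 350 and 4.93 TPM. BNC1, a zinc finger factor of mesothelium, had 15.8, 14.8 and 0.17 TPM with a PC1 of 11.06, 20.98 and 2.95, lower but still in A. CALB2, which encodes calretinin, was at 0 in all 3, and KRT18 was not called, with 4.86, 8.41 and 4.36 TPM. In wild boar 8 of the 11 were lower in both ULB libraries than in both GOM libraries, against 25.6% of all genes. The part of mesothelial cells in the relation of expression to PC1 was not tested.

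The depot patterning factors, transcription factors that set regional identity in the embryo, moved in both directions. Of 40 compared, 14 were called higher and 11 lower, against 11.4% and 8.56% of all genes. Of their start sites, 5 gained A and 2 lost A. The lower group held GATA5, GATA6, TCF21, ISL1 and MEIS1. MEIS1, a HOX cofactor, had 90.4, 73.3 and 10.04 TPM with a PC1 of 6.32, 9.05 and -9.15. GATA6 had 35.6, 26.2 and 0.83 TPM with a PC1 of 24.3, 24.5 and 1.37, so that it stayed on the A side of 0. NR2F2, a nuclear receptor, had 96.9, 33.0 and 26.5 TPM and was not outside.

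The HOX clusters, homeobox genes ordered along the chromosome as along the body axis, are given by cluster, a choice made once the values were known. Among all genes 11.4% were called higher and 8.56% lower. Of 7 HOXB genes, HOXB2, HOXB4, HOXB5, HOXB6 and HOXB8 were called lower, while PC1 differences at the placed start sites stayed between -2.64 and 3.28. HOXB6 had 28.7, 31.4 and 2.17 TPM with a PC1 of 20.1, 23.0 and 21.1. Of 6 HOXD genes, HOXD4, HOXD8 and HOXD11 were called higher, and the placed start sites rose by 10.76 to 13.73 PC1 units. HOXD8 had 10.4, 12.2 and 52.8 TPM with a PC1 of 17.0, 12.6 and 28.5. Of 5 HOXC genes compared, HOXC8, with 0.67, 0.62 and 3.67 TPM, and HOXC9, with 0, 0.4 and 3.49 TPM, were called higher and 0 lower, and PC1 differences at the 5 start sites were between -4.54 and 2.93. Of 6 HOXA genes compared, HOXA7 was called higher and HOXA10 lower, with PC1 differences between -6.44 and 0.76. The HOXA calls are not read as a result about that cluster. All placed start sites of the compared HOX genes lay in A in all 3 libraries.

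Of 30 collagens and matrix genes compared, 12 were called higher and 0 lower, against 11.4% and 8.56% of all genes. The median log2 fold change was 0.94. The median PC1 difference of the 27 with a PC1 value was -0.35. COL1A1, a chain of type I collagen, had 114, 50.5 and 721 TPM, and MMP2, a gelatinase, had 164, 52.8 and 390 TPM. DCN and SPARC, the most abundant of the list, had log2 fold changes of 0.42 and 0.8 and were not called. Of these 27 start sites 0 changed state.

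The WNT pathway had 12 of 34 genes called lower and 2 called higher, against 8.56% and 11.4% of all genes. Its median was -0.31, or -0.22 with the gene at 0 counts set at its bound. WNT5B, a WNT ligand, had 14.1, 26.3 and 0.29 TPM, while SFRP4, a secreted WNT antagonist, had 6.61, 8.93 and 117 TPM and a log2 fold change of 4.37. In the TGF-beta and BMP pathway 7 of 38 were called lower and 2 higher. The progenitor and fibroblast list split evenly, with 5 of 17 called higher, PRRX1 and SFRP4 among them, and 5 lower, GREM1, DPT and F3 among them.

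Of 21 genes of fatty acid and triglyceride synthesis, 5 were called lower and 2 higher, against 8.56% and 11.4% of all genes. No start site of this list changed state. FASN, the fatty acid synthase, had 1394, 1064 and 211 TPM, a log2 fold change of -2.06. THRSP, a regulator of lipogenesis, had 1678, 1966 and 444 TPM, and DGAT2, the last enzyme of triglyceride synthesis, had 235, 394 and 82.2 TPM. PNPLA3, a lipase-like protein of lipid droplets, was called higher with 22.4, 12.7 and 53.9 TPM. The PC1 differences at these 4 start sites were between -2.55 and 3.69, within the SD of 6.13 between the GOM libraries. FASN was also lower in both wild boar ULB libraries, and THRSP and DGAT2 overlapped there.

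Few genes of energy use were called, against 11.4% called higher and 8.56% called lower of all genes. In the adipocyte list 1 of 18 was called higher and 1 lower, with a median of 0.0. Of 25 respiratory chain genes 0 were called, of 22 fatty acid oxidation genes 1 was called higher, and of 17 lipolysis and lipid droplet genes 1 was called lower. The summed TPM of these 3 lists was 2950, 4780 and 2690, then 1700, 2770 and 1380, and then 3730, 5530 and 3040. The sums thus also differed between the GOM libraries, and why few genes were called was not tested. Outside, called or not, lay 1 respiratory chain gene higher and 1 lower, against 18.9% and 18.1% of all genes. For fatty acid oxidation the numbers were 2 and 1, and for lipolysis and lipid droplet 0 and 3. The median log2 fold changes of the 3 lists were -0.17, -0.21 and -0.2, against 0.02 over all genes. Few calls do not show that the depots were alike. PPARGC1A, the coactivator of oxidative metabolism, had 1.01, 0.52 and 4.57 TPM, a log2 fold change of 2.99, while the PC1 of its start site differed by -11.62. ADRA2A, an antilipolytic receptor, had 4.03, 3.15 and 0.76 TPM.

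Of 20 T and B lymphocyte genes 9 were called lower and 3 higher, against 8.56% and 11.4% of all genes. The summed TPM was 384, 350 and 97.5. LCK, a T cell kinase, had 5.67, 6.72 and 0.47 TPM, and JCHAIN, of plasma cells, had 190, 184 and 19.3 TPM. CXCR5, a chemokine receptor of B cells, had 0, 0 and 1.96 TPM, at least 62.8-fold higher. Wild boar had at most 0.03 TPM of CXCR5, so its rise rests on the single library BM-ULB-2. Of 18 macrophage genes 3 were called lower, C1QC, VSIG4 and MARCO, and 1 higher, and the list summed to 2150, 1430 and 1100 TPM. The median log2 fold change was -0.54 for the lymphocyte list and -0.21 for the macrophage list, against 0.02 over all genes. PC1 at the start sites of LCK and JCHAIN differed by 6.39 and 13.22, upward, while their transcripts fell.

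The liver list summed to 611, 1690 and 291 TPM, of which ALB had 293, 873 and 77.7, and 2 of 14 genes were called lower. The blood cell list summed to 567, 1690 and 421 TPM, with 1 of 9 called higher and 2 lower. The skeletal muscle list summed to 15.1, 15.7 and 16.8 TPM, with 2 of 13 called higher and 3 lower. The nerve and Schwann cell list had 4 of 10 called higher and 2 lower, and summed to 286, 316 and 189 TPM. Endothelium had 2 of 17 called lower at a summed 1340, 1040 and 860 TPM, smooth muscle and pericytes 1 of 12 lower at 813, 556 and 485 TPM, skin epithelium 1 of 6 higher and 2 lower, and pancreas 3 of 3 higher at a summed 0.287, 0.885 and 2.88 TPM. LMOD1, a smooth muscle leiomodin on chromosome 10, had 34.7, 22.1 and 9.0 TPM. Immediate early genes had 2 of 21 called higher, clock genes 1 of 16 higher, ribosomal proteins 1 of 30 higher and interferon-stimulated genes 0 of 23. Among all genes 11.4% were called higher and 8.56% lower. The counts of endothelium, smooth muscle, immediate early and clock genes were near or below these shares and are not read as results about the lists. The sums are on the TPM scale, where all genes shifted by -0.44, so they are not read as depot differences. The median log2 fold change was -0.07 for endothelium and -0.03 for smooth muscle and pericytes, against 0.02 over all genes. It was 1.36 for nerve and Schwann cells, whose sum fell, -1.76 for liver, -0.68 for blood cells and 0.11 for skeletal muscle.

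**Figure D5:**
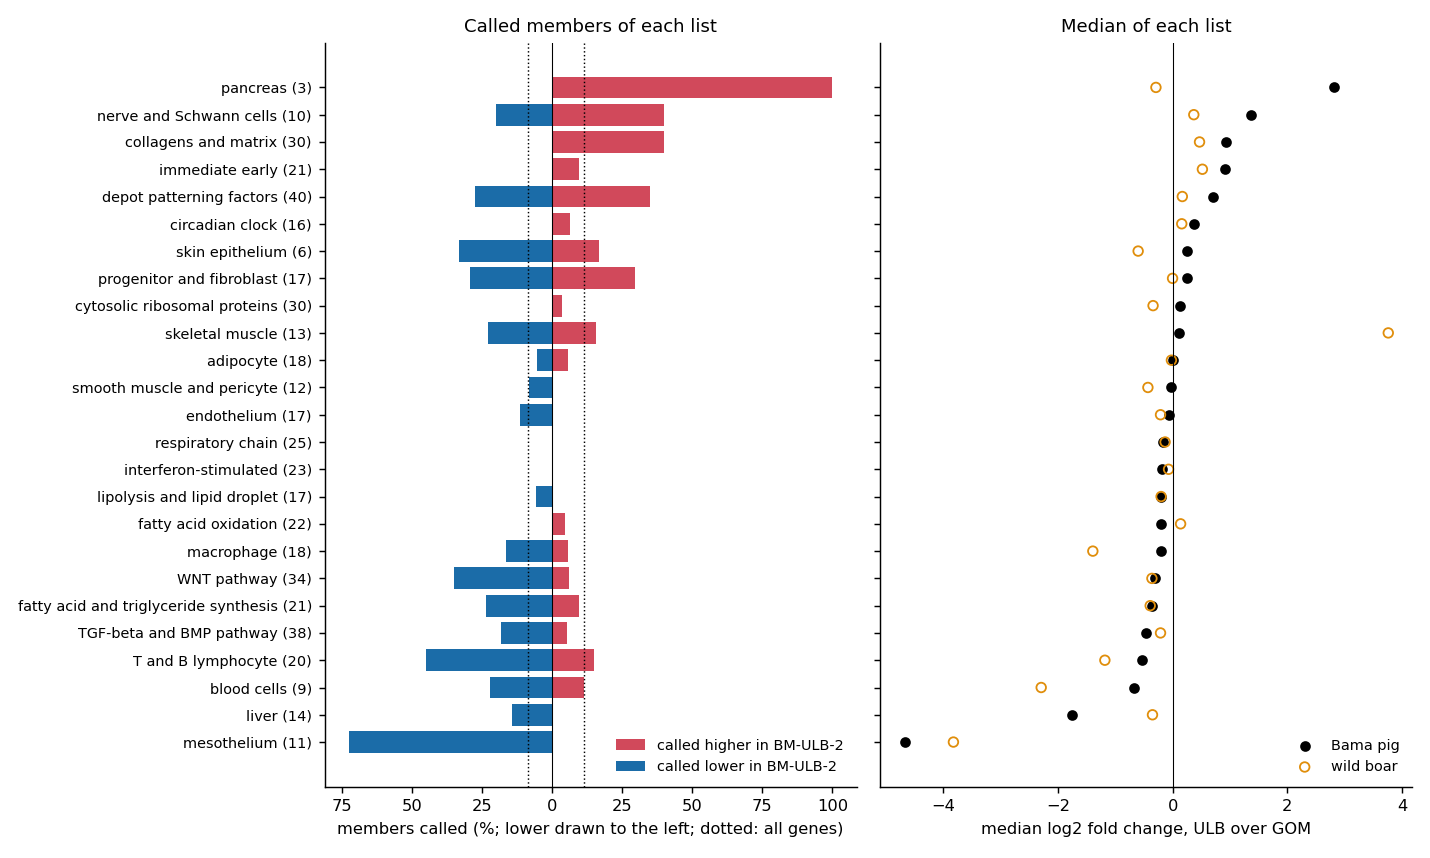
Left, percent of the compared members of each gene list (number in brackets) called higher (red, to the right) or lower (blue, to the left) in BM-ULB-2, with the share among all genes dotted. Right, median log2 fold change of each list in Bama pig (filled) and wild boar (open). The mesothelium lies lowest in both breeds at -4.67 and -3.82, the collagens and matrix list is above 0 in both, and the pancreas list rests on 3 genes of low level.

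Compared with wild boar, the relation of expression to PC1 was of similar size. In wild boar r was 0.204 and rho 0.134 over the same genes. The Bama pig log2 fold change had an r of 0.143 with the PC1 difference of the wild boar, and the wild boar log2 fold change had an r of 0.199 with the PC1 difference of Bama pig. The log2 fold changes of the breeds had an r of 0.507. Among the genes from A to B in Bama pig, the 33 with the same change in wild boar had a median log2 fold change of -0.76 in Bama pig and the 163 others had -0.37. From B to A the medians were 0.56 for 23 genes and 0.2 for 173 genes. The relation was therefore also found with PC1 values from other animals, and the difference in r between the breeds was not tested.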

How the data were processed

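Hi-C and RNA-seq values of Bama pig GOM (replicates 1 and 2) and ULB (replicate 2) were used, with wild boar values set beside them. Groups came from the sample labels. The members and gene lists were chosen with earlier results of these data known. The authors quantified genes with kallisto (0.43.0 in the submitters' processing notes) against Sscrofa11.1 and deposited an estimated count and a TPM per gene and library. The libraries were rRNA-depleted and stranded. The authors also deposited a PC1 score per 20-kb bin, derived from normalized contacts and oriented so that gene-rich regions are positive. It is named an A-B index, but has mean 0 on each chromosome and was read as PC1. The lists of domains were not used here.

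Estimated counts were rounded and scaled with edgeR 4.0.16 (TMM, prior count 2), keeping genes above 0.1 TPM in both GOM libraries or in the ULB library. Genes were placed by symbol in RefSeq for Sscrofa11.1, which placed 13521 of 21280 (63.5%), and all 18 autosomes had the reference's length. Coordinates count from 1. Chromosome 10 was left out, since the sign of PC1 there is turned between the Bama pig libraries. Depth was 10833153 to 18627076 estimated counts per library. Zero counts were set against a floor of 3 counts, and intervals are exact Poisson intervals at 95%. The PC1 score carries no counts, so its depth is unknown.

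Named genes were up to 8 in each direction with the largest change at 5 TPM or more, up to 6 in each direction whose bin changed state the same way and up to 3 against it at 1 TPM or more, 2 to 4 members of each list (the largest changes among those outside and the most abundant), and genes of the 3 longest runs in each direction. Exceptions are named, and a few items that these rules choose are not reported here. The rules were also run on simulated data. The settings and outcome of that simulation are not reported here, so no conclusion about the rules in these data is drawn from it. Alternatives were DESeq2 1.42.0 size factors, upper-quartile factors, other filters, prior counts and PC1 scalings, and leaving out each GOM replicate. Python 3.11.15, numpy, pandas and matplotlib were used for the rest.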

Additional observations from a re-analysis of the deposited data

Results flagged for a closer look

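Values in 3 genes of the lists ran in opposite directions in the breeds, and the difference between the breeds was not tested. DSG1, a desmosomal cadherin of skin, had a log2 fold change of 2.78 in Bama pig, where it was called higher, and of -0.51 in wild boar, where both ULB libraries lay below both GOM libraries. CEL, the bile salt lipase of the pancreas, had 2.85 in Bama pig and -1.05 in wild boar. SLC4A1, the anion exchanger of red cells, had 2.28 in Bama pig and -2.24 in wild boar. BM-ULB-2 held 13, 24 and 10 estimated counts of these genes, so that all 3 are of low level.

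Chromosome 10, whose PC1 entered only the alternative over all 18 autosomes, had a changed state in 69.9% of its bins in Bama pig and in 0.26% in wild boar, against 5.12% on the other Bama pig autosomes. Its PC1 had an r of 0.737 between the GOM libraries, -0.519 between BM-GOM-1 and BM-ULB-2 and -0.933 between BM-GOM-2 and BM-ULB-2. Over the first 25 Mb, mean PC1 was 13.2 in BM-GOM-1 and 22.9 in BM-GOM-2, and -24.0 in BM-ULB-2, and the 4 wild boar libraries lay between -20.6 and -6.1. The sign of PC1 on this chromosome in the GOM libraries was thus opposite to that in the other 5 libraries.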

How the results depend on the processing

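No value carries a test, since the ULB has 1 library. The number of genes called higher, 2000, was between 1371 and 2175 under 7 alternatives and 863 with at least 10 counts in each library. The number called lower, 1505, was 761 with that filter and 3018 on the log2(TPM + 0.1) scale, where all genes shift by -0.44, and was between 1086 and 1666 under the other 6. A threshold of TPM of at least 1 in the higher depot was chosen after seeing the data. The fold threshold alone gave 2922 higher and 2127 lower genes, 2668 to 3733 and 2150 to 2873 when a GOM replicate was left out. No paired analysis was possible because only replicate 2 is present in both depots, and without GOM replicate 1 the comparison is that of the libraries numbered 2.

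The length from B to A, 53.46 Mb, was 8.46 Mb with an absolute PC1 of at least 5, 24.14 Mb in runs of at least 3 bins, 81.3 Mb on all 18 autosomes and 76.34 to 86 Mb when a GOM replicate was left out. That from A to B, 59.1 Mb, was 8.36 Mb, 28.6 Mb, 79.72 Mb and 85.15 to 93.02 Mb.

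The r of 0.155 moved by more than the spread of 0.0047 between the values without a GOM replicate (0.132 to 0.139) but kept its sign under every alternative run. It was 0.136 as rho, 0.171 with PC1 averaged over 3 bins, 0.185 for a mean TPM of at least 1, 0.165 with 1 value per bin, 0.128 on all 18 autosomes, 0.149 on the TPM scale and 0.139 with a prior count of 0.5. In alternatives added after seeing the data it was 0.143 without the mesothelium and depot patterning lists, 0.131 without bins that changed state and 0.178 with at least 10 counts in each library. The median of genes from B to A, 0.22, was 0.31 with upper-quartile factors, turned to -0.23 on the TPM scale and was 0.19 to 0.22 without a GOM replicate. That of genes from A to B, -0.44, was -0.35 and -0.86 on these scales and -0.49 to -0.47 without a GOM replicate. The shift of all genes accounts for the turn, since relative to all genes the medians were 0.21 and -0.42 on the TPM scale. For 73 named genes that were called, 0 of 657 alternative values turned the sign.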
